A study of Mus musculus with 2 samples.

Results

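The genes described here are 10 tetraspanins known from blood cells, namely Tspan5, Tspan32, Tspan33, Cd9, Cd37, Cd53, Cd63, Cd81, Cd82 and Cd151, of 20660 genes that could be named on the array. They were taken by name, and every probe whose RefSeq accession belonged to one of them was used, which gave 17 of 27235 named probes. The choice was made with the ratios of these same arrays known, so the values are a description and no test is built on them. Tetraspanins are small membrane proteins that cross the membrane 4 times and gather integrins, adhesion molecules, proteases and receptors into patches of the cell surface. Several of them carry CD numbers because they were defined as surface antigens of blood cells, and they are known for their roles in adhesion of stem cells to the marrow niche, in platelet function and in the signalling of lymphocytes. A subgroup called TspanC8, named for the cysteines of the large extracellular loop, escorts the protease Adam10 to the cell surface, where Adam10 cuts Notch receptors and other membrane proteins.

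The cells were pre CFU-E, an early erythroid progenitor, sorted from the bone marrow of mice recovering from the anti-cancer drug 5-FU. They carried c-Kit, endoglin and CD150, were low for CD41, negative or low for FCgRII/III, and lacked Sca1 and the lineage markers. One pool came from wild-type (WT) C57BL/6 mice and one from ESAM-KO mice of the same strain, in which the adhesion molecule ESAM is deleted in every cell, endothelium included. Both groups had received a single injection of 120 mg/kg of 5-FU and were killed 8 days later, so both carry the effect of the drug and there was no untreated group. Each genotype was measured on 1 array with pooled cells of several mice, hence nothing below carries an SD or a test, and an effect of genotype cannot be told apart from one of pooling, sorting or amplification. Because these are bulk samples, fewer cells of a type and less RNA per cell cannot be told apart either.

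Values are processed intensities, the brightness of a spot after background subtraction by the scanner software. Saturation was not seen. Each array was divided by its own 75th percentile (201.4 for WT, 251.1 for ESAM-KO), and log2 ratios are those of ESAM-KO over WT. This scaling moves every ratio by -0.32 on the log2 scale. The error given with a ratio is that of the scanner software for the spots, and it covers neither amplification nor differences between mice. Of the genes named on the array, 14136 had a ratio, with a median log2 ratio of 0.00056. By more than 2-fold, the criterion of the study's methods, 988 genes were higher (6.99%) and 1191 were lower (8.43%) in ESAM-KO, and without scaling these counts were 1804 and 729. Esam was dim on both arrays (27.4 in WT, 20.6 in ESAM-KO, with 12.6 and 13.2 as the lowest signals well above background), and its log2 ratio of -0.73 ± 0.31 (scanner error) is a weak check of the genotypes. Of the erythroid markers all 11 were well above background on both arrays, among them Gata1 at 5959 and 5889. Of 7 sort markers 6 had a ratio, 5 of them below 0, with a median of -0.47. Kit read 3414 and 3326, Eng 374.9 and 268.7, and Slamf1, which encodes CD150, was close to background at 17.8 and 23.0. Ly6a, which encodes Sca1, for which the cells were sorted as negative, read 61.1 in WT and was not well above background in ESAM-KO (12.3), at least 5.79-fold lower and the only sort marker past 2-fold. This is a bound, and 0 sort markers were past 2-fold with normexp background correction or where detection on both arrays was required. The array also carried signal for genes of cells that the sort should remove, and all 11 neutrophil genes examined were more than 2-fold lower in ESAM-KO.

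All 10 tetraspanins were above background in WT and 9 of them also in ESAM-KO. At the brightest probe of each gene, 1 was higher by more than 2-fold (Tspan5), 1 was lower by more than 2-fold (Cd53), and the other 8 lay within 2-fold. The Tspan5 probe counted is the brightest through its ESAM-KO signal, since in WT it had the lower signal of the pair, so the difference itself selected the probe. Since the genes were chosen on this comparison, the shares of all genes past 2-fold (6.99% higher, 8.43% lower, 15.4% in either direction) stand beside these counts as background and nothing is read from them. The median log2 ratio of the 10 genes was -0.42, with 4 ratios above 0 and 6 below 0, and without scaling 5 lay above and 5 below. Over the 17 probes, 7 ratios were above 0 and 10 below, and 3 were past 2-fold, which is 17.6% compared to 16.5% of all named probes with a ratio. In the plot of intensities by array, the large gaps between WT and ESAM-KO are those of 1 Tspan5 probe and of Cd53, and at most other probes the arrays lie close together.

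**Figure D1:**
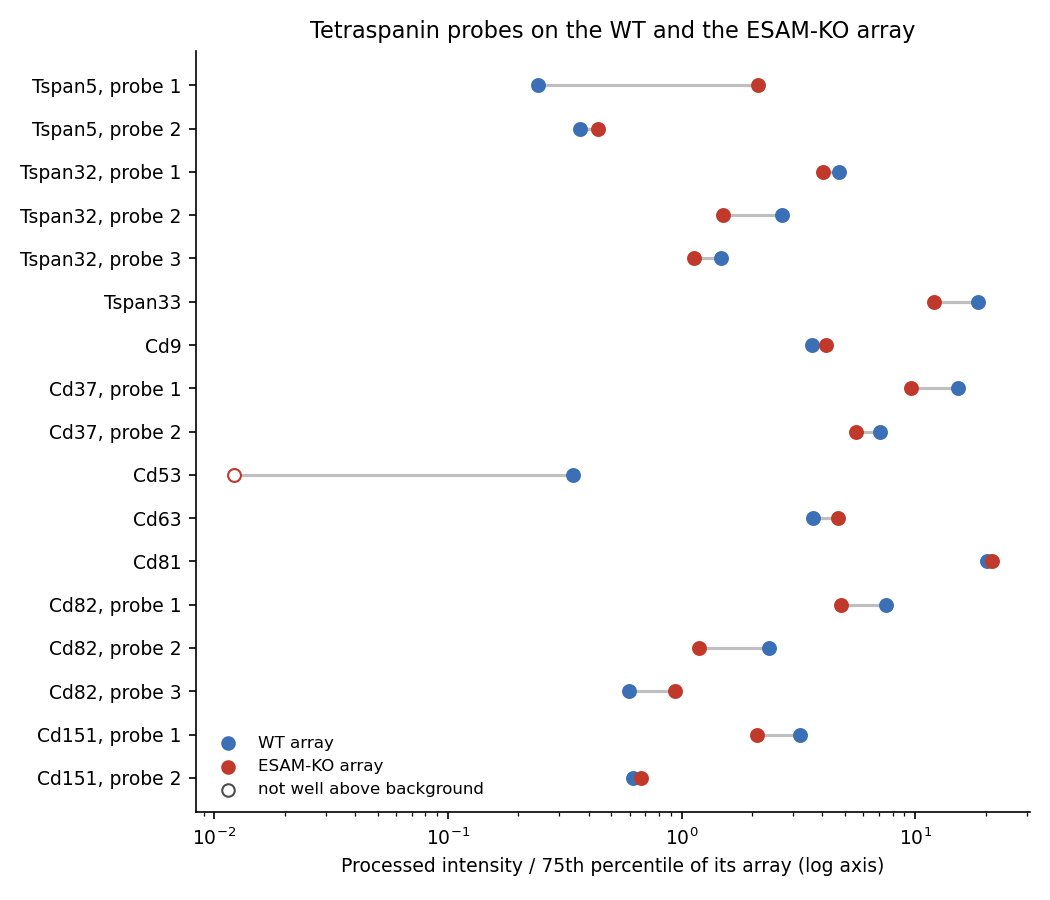
Processed intensity of each tetraspanin probe divided by the 75th percentile of its array, on a log axis, with the WT array in blue and the ESAM-KO array in red. An open circle marks a probe not well above background, which was the case for Cd53 in ESAM-KO alone, and probes of a gene are numbered from the brightest. Levels of different probes cannot be compared with each other. Tspan5 probe 1 was at 0.24 in WT and at 2.12 in ESAM-KO, whereas Cd81 read 20.3 and 21.3.

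Tspan5 is a TspanC8 protein, one of the escorts of Adam10. The array held 2 probes for it, both assigned to NM_019571. For the probe with the higher mean signal, called the brighter one here, the intensity was 49.2 in WT and 532.6 in ESAM-KO, and for the other one 73.8 and 110.5. Their log2 ratios were 3.12 ± 0.23 and 0.26 ± 0.22 (scanner error), an 8.69-fold and a 1.201-fold higher signal in ESAM-KO. Both probes were thus higher in ESAM-KO, but by very unequal amounts. Before background subtraction the raw spot signal was 92 in WT and 547 in ESAM-KO for the brighter probe, over a local background of 39 on both arrays, and neither spot carried an outlier flag on either array. The ratio of the brighter probe was higher than that of 99.8% of the genes with a ratio, and the ratio of the other probe higher than that of 68.6%. Averaging both probes gave 1.69, and taking the dimmer probe alone put Tspan5 within 2-fold. The brighter probe remained past 2-fold under every scaling, with 2.14 after normexp background correction as the lowest value, and the dimmer probe stayed within 2-fold under every scaling. Which of the probes follows the transcript was not tested.

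A difference of this size between probes of one gene is uncommon on these arrays but not unique. Among 2568 genes with 2 probes well above background on both arrays, the ratios of the pair differed by a median of 0.42 on the log2 scale and by up to 1.53 for 90% of them. The difference of 2.85 at Tspan5 was larger than that of 98.8% of these genes. For Cd37 and Cd151, which also had 2 probes, the differences of 0.33 and 0.73 were larger than those of 42.0% and 68.3%.

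**Figure D2:**
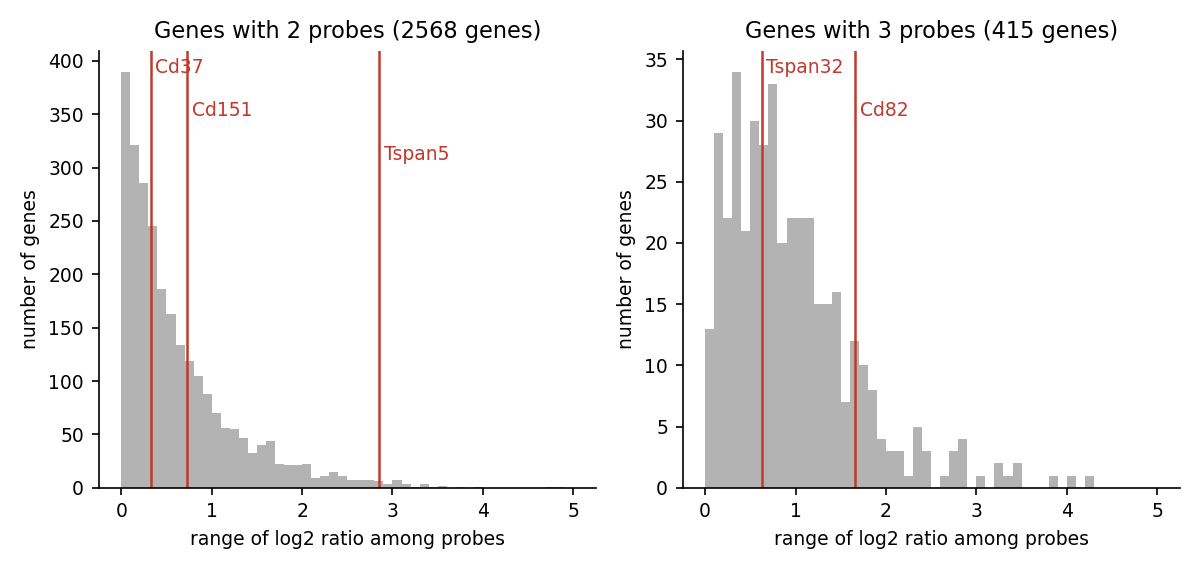
Histograms of the range of the log2 ratio (highest minus lowest) among the probes of a gene, for genes with 2 probes (left) and with 3 probes (right) well above background on both arrays, with the number of genes on the y axis. The red lines mark the tetraspanins, of which Tspan5 (2.85) lies in the far tail of its panel and Cd82 (1.66) in the upper part of its own, and Cd37, Cd151 and Tspan32 lie in the bulk.

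Cd53 is a tetraspanin of the leukocyte surface that is found on nearly all white blood cells and is not a marker of red cells or platelets. Its single probe (NM_007651) read 69.2 in WT and 3.05 in ESAM-KO, where it was not well above background. Only a bound can therefore be given, and Cd53 was at least 6.56-fold lower in ESAM-KO, a log2 ratio of -2.71 or less. The raw spot signals were 105 and 45 over local backgrounds of 36.5 and 37. The spot was dim on the WT array as well, and with normexp the bound was -0.96 and within 2-fold. Of the 561 genes with a ratio that were detected in WT only, as Cd53 was, 46.5% were lower by more than 2-fold.

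Other leukocyte genes differed between the arrays beside Cd53. All 11 neutrophil genes, from Elane and Mpo of early granulocytes to Camp and Ltf of late ones, were above background on both arrays and lower in ESAM-KO, with a median log2 ratio of -3.35. Their summed intensity, in units of the 75th percentile, was 297.8 in WT and 40.2 in ESAM-KO. Such a sum rests mostly on its brightest probes, and S100a9 alone made up 158.8 and 27.5 of it. The largest difference among them was that of Ctsg, a granule protease, with 1373 and 66.6, and the smallest that of Mmp8, a late granule protein, with 120.1 and 67.1, which was within 2-fold without scaling and with normexp. Of 8 B cell genes, 7 had a ratio and 4 were lower by more than 2-fold, with summed levels of 2.91 and 0.93, but only 1 was lower with normexp, where the median of the list went from -1.72 to -0.59, and Ms4a1 was not above background on either array. Of 6 T and NK cell genes, 1 was lower by more than 2-fold, and the summed levels were 10.0045 and 10.8, or 0.90 and 0.96 without Nkg7, whose other probe was at -0.45. The lower one, Cd3d, was a bound detected in WT only (39.6 and 6.11). With normexp, or where detection on both arrays was required, 0 were lower. Cd3g and Cd2 were not above background on either array. Of 8 macrophage genes on the array, 1 was higher and 1 lower by more than 2-fold, the summed levels were 33.97 and 30.3 (1.43 and 1.15 without Csf1r, a receptor that carried most of the sum), and C1qc and Mrc1 were not above background on either array. Of 7 genes of mast cells, basophils and eosinophils, 1 was higher and 3 were lower, with summed levels of 8.00 and 0.79 (6.07 and 0.45 of them from Prg2), and Mcpt8, Cpa3 and Fcer1a were not above background on either array. With normexp 0 genes of this list and 0 macrophage genes were higher, while the counts of lower genes stayed at 3 and 1. The part of these leukocytes in the lower signal of Cd53 was not tested.

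The sequences upstream of Tspan5 and Cd53 are shown because these are the genes past 2-fold, and that of Tspan33 because it is the TspanC8 member known from erythroid cells. The 250 bases before the annotated start of transcription are given 5′ to 3′ on the strand of the gene, from RefSeq on GRCm38.p6, in lower case. Capitals mark matches, on either strand, to the GATA motif (the letters AGATAA, the letters AGATAG, the letters TGATAA and the letters TGATAG), the core of the PU.1 motif (GAGGAA) and the CACCC box (CCNCNCCC), which is bound by Klf1 and which these letters do not separate from GC boxes bound by Sp1.
Tspan5 (chr3:138741958-138742207, plus strand): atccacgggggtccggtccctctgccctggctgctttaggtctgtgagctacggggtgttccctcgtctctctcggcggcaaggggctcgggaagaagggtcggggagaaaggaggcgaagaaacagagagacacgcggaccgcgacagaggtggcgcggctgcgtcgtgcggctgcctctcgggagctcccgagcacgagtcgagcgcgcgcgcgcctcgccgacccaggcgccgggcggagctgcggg
Cd53 (chr3:106790150-106790399, minus strand): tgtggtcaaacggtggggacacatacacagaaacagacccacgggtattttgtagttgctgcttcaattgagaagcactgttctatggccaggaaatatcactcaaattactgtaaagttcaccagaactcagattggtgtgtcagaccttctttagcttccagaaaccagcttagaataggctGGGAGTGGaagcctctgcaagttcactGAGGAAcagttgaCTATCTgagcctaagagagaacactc
Tspan33 (chr6:29693964-29694213, plus strand): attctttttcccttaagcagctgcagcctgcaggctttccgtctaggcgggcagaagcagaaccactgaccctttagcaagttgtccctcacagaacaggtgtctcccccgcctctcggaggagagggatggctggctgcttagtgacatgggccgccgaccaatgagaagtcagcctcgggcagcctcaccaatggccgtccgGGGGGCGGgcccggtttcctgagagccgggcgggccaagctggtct
The Tspan5 window held none of the motifs and had a GC content of 70.8%, the Cd53 window held 1 match to each of the 3 and had a GC content of 45.2%, and the Tspan33 window held 1 match to the CACCC letters. Over all 10 genes, which had 14 such windows, 3 windows held the GATA motif, 5 the PU.1 core and 10 the CACCC letters. Of all 32851 windows of the same length, 26.5% held the GATA motif, 23.3% the PU.1 core and 45.9% the CACCC letters. A match is only a description of these letters, and the array gives no measurement of binding.

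Tspan33, also called penumbra, is a TspanC8 member of erythroid progenitors. Its probe (NM_146173) read 3752 in WT and 3029 in ESAM-KO, giving a log2 ratio of -0.63 ± 0.20 (scanner error), or -0.31 without scaling. The difference stayed below 0 and within 2-fold under every setting tried, between -0.76 and -0.31. Among the 11 erythroid markers, 4 were lower by more than 2-fold (among them Alas2, an enzyme of haem synthesis, and Hba-a1, a globin) and 0 were higher, with a median log2 ratio of -0.34 and summed levels of 552.2 and 190.2. Hba-a1 and Slc4a1, an anion exchanger of the red cell membrane, carried most of that difference, and the other 9 markers summed to 122.6 and 106.7. The part of these markers in the ratio of Tspan33 was not tested.

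Tspan32 is a tetraspanin of blood cells that is known as a regulator of T cell proliferation and of platelet integrin signalling. Its brightest probe (NM_020286) read 948.8 and 1014 in WT and ESAM-KO, another probe of that accession 543.0 and 376.0, and the probe of NM_001128080 read 298.2 and 283.4. The log2 ratios were -0.22, -0.85 and -0.39, all below 0 and within 2-fold, but without scaling the brightest probe was at 0.10 and the direction of the gene was not settled. Tspan32 and Cd81 are neighbours on chromosome 7, where only the noncoding gene R74862 lies between their starts in the RefSeq table, and that gene had a log2 ratio of 0.28.

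Cd37 is a tetraspanin of B cells and other mature leukocytes, and Cd81 is present on most blood cells. Cd37 read 3060 in WT and 2402 in ESAM-KO at its brighter probe (NM_007645) and 1429 and 1406 at the dimmer one, with log2 ratios of -0.67 and -0.34. Both ratios were below 0 with and without scaling, and the dimmer probe was at -0.02 without it. The Cd81 probe (NM_133655) read 4095 and 5347, a log2 ratio of 0.07 ± 0.20 that was smaller than the scanner error. The sign of Cd81 turned with median scaling, at -0.06.

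Cd9 and Cd151 are tetraspanins of platelets and megakaryocytes that bind integrins, and Cd9 is also carried by stem cells of the marrow. The Cd9 probe (NM_007657) read 731.8 in WT and 1041 in ESAM-KO, giving a log2 ratio of 0.19 ± 0.20. The brighter Cd151 probe (NM_009842) read 649.4 and 526.2 and the dimmer one 124.6 and 167.7, with log2 ratios of -0.62 and 0.11, so that the probes of Cd151 differed in direction and neither was past 2-fold. The dimmer one turned to -0.02 with median scaling. Of 9 megakaryocyte genes, all with a ratio, 2 were higher (Gp1ba and Vwf) and 2 lower (Gp9 and Ppbp) by more than 2-fold, with summed levels of 10.7 and 11.8. Gp1ba, Gp9 and Ppbp were each detected on 1 array only, and the counts were 2 higher and 0 lower without scaling and 0 and 0 with normexp.

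Cd63 is a tetraspanin of lysosomes, secretory granules and extracellular vesicles. Its probe (NM_001042580) read 736.7 in WT and 1169 in ESAM-KO, giving a log2 ratio of 0.35 ± 0.20, and it was above 0 and within 2-fold under every setting tried. Of 10 genes of vesicle formation, 9 had a ratio, with a median of 0.05. Stam was at -0.34 at its brightest probe, but its other probe (33.1 and 132.1) was 3.20-fold higher in ESAM-KO. Vps4b, an ATPase that recycles the ESCRT machinery, was higher at 1.12, and of the GTPases that dock vesicles at the membrane, Rab27b was higher at 1.02 and Rab27a lower at -1.47. The dimmer Rab27b probe was within 2-fold at 0.47, and the brighter one was within 2-fold with median scaling (0.89), quantile normalization (0.95), cyclic loess (0.97) and normexp (0.52). Vps4b was within 2-fold with median scaling (0.995), where 0 genes of the list were higher, and Rab27a with normexp (-0.98).

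Cd82 is a tetraspanin of quiescent blood stem cells and was first described as a suppressor of metastasis. Of its 3 probes, the brightest (NM_001136055) read 1514 in WT and 1211 in ESAM-KO, another of that accession 477.0 and 297.2, and the probe of NM_007656 read 120.1 and 236.2. The log2 ratios were -0.64, -1.001 and 0.66, each ± 0.20 or 0.21 (scanner error), so the probes of both accessions went in opposite directions by more than that error. The middle probe was just past 2-fold, and it was within 2-fold without scaling (-0.68), with scaling to the detected probes (-0.98), with quantile normalization (-0.99) and with normexp (-0.88). The range of 1.66 among the 3 probes was larger than that of 86.0% of 415 genes with 3 probes, whose median was 0.79. For Tspan32 the range was 0.63, larger than that of 38.1% of these genes.

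**Figure D3:**
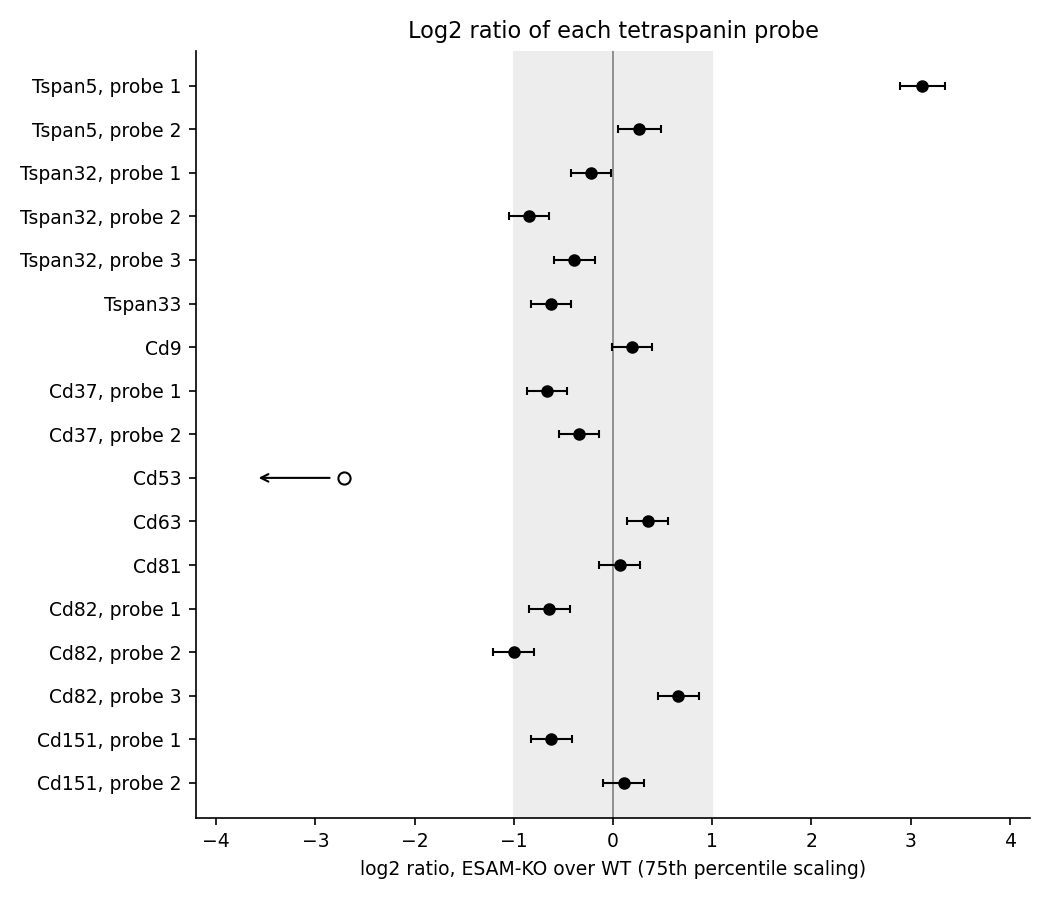
Log2 ratio of ESAM-KO over WT for each tetraspanin probe after scaling to the 75th percentile, with bars for the scanner error, which is not a replicate error, and a grey band for ratios within 2-fold. The open circle with an arrow is the bound of Cd53 at -2.71. Probes of one gene spread widely for Tspan5 (3.12 and 0.26) and Cd82 (from -1.001 to 0.66), and the probes of Tspan32 and Cd37 all lie below 0, although without scaling the brightest Tspan32 probe is at 0.10.

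The 21 other tetraspanins of the mouse show how the family stood outside these genes. Of them 13 had a ratio, with a median log2 ratio of 0.18, and 8 were not above background on either array (Tspan1, Tspan7, Tspan9, Tspan11, Tspan12, Tspan15, Upk1b and Prph2). By more than 2-fold, 1 was higher and 0 were lower, beside 6.99% and 8.43% of all genes with a ratio. The one past 2-fold was Tspan14, another TspanC8 member, which had 283.6 in WT and 764.0 in ESAM-KO, for a ratio (log2) of 1.11 ± 0.20, and it was within 2-fold with median scaling (0.98) or with normexp (0.99).

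The 6 TspanC8 genes together did not move one way. Tspan5 (brighter probe) and Tspan14 were higher by more than 2-fold, Tspan10 was at 0.82 near background (17.7 and 39.1), Tspan17 at -0.25 (148.5 and 155.7), Tspan33 at -0.63, and Tspan15 was not above background on either array. Without scaling the brighter Tspan17 probe was at 0.07, and its dimmer probe was at -0.84 with scaling. Adam10, the protease they escort, was well above background and nearly equal on the arrays after scaling. It read 7734 and 9929, with a log2 ratio of 0.04 ± 0.20, or 0.36 without scaling.

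Among 7 Notch receptors and targets, 6 had a ratio and their median log2 ratio was 1.12, compared to 0.00056 for all genes. Hey1 and Nrarp (0.76) among them were bounds detected in ESAM-KO only. Such a bound is kept only where it is above 0, so its sign was fixed in advance and it raises the median. The median was 0.74 over the 4 genes detected on both arrays and 0.76 with no detection filter. Hes1, a transcriptional repressor and Notch target, read 30.5 in WT and 106.3 in ESAM-KO, and its log2 ratio was 1.48 ± 0.26. Hey1, a target of the same kind, was not well above background in WT (3.32) and read 136.2 in ESAM-KO, at least 8.69-fold higher. Notch3, a receptor, was at 2.23 ± 0.32, with 15.7 and 91.8. The other receptors were within 2-fold at their brightest probes, Notch2 at -0.23 (7209 and 7653) and Notch1 at 0.00 (41.4 and 51.7), whereas another Notch1 probe (65.2 and 5.73) was detected in WT alone and was at least 6.18-fold lower in ESAM-KO. Without scaling Notch2 was at 0.09. All 3 genes past 2-fold were dim in WT, and with normexp Hes1 was within 2-fold, at 0.62, and the median was 0.38. Hes1 and Notch3 lay in the lowest quartile of mean signal, where 17.9% of genes detected on both arrays were past 2-fold. Hey1 was a bound, and of the 1521 genes with a ratio that were detected on 1 array only, 38.8% were past 2-fold.

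Of 16 partner genes of tetraspanins (integrins, immunoglobulin superfamily partners, proteases and co-receptors), 15 had a ratio, with a median of 0.14. By more than 2-fold, 0 were higher and 1 was lower at the brightest probe, beside 6.99% and 8.43% of all genes with a ratio. The lower one was Cd36, a fatty acid and thrombospondin receptor, whose signal was 354.1 in WT and 16.7 in ESAM-KO, for a ratio (log2) of -4.72 ± 0.32, and -2.56 with normexp. The integrin subunits Itga4 (0.29), Itga6 (0.45), Itgb1 (-0.26) and Itgb3 (0.24) were within 2-fold at their brightest probes, although a dim Itgb3 probe that was not well above background in WT (12.7 and 100.3) gave a bound of at least 6.34-fold higher.

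**Figure D4:**
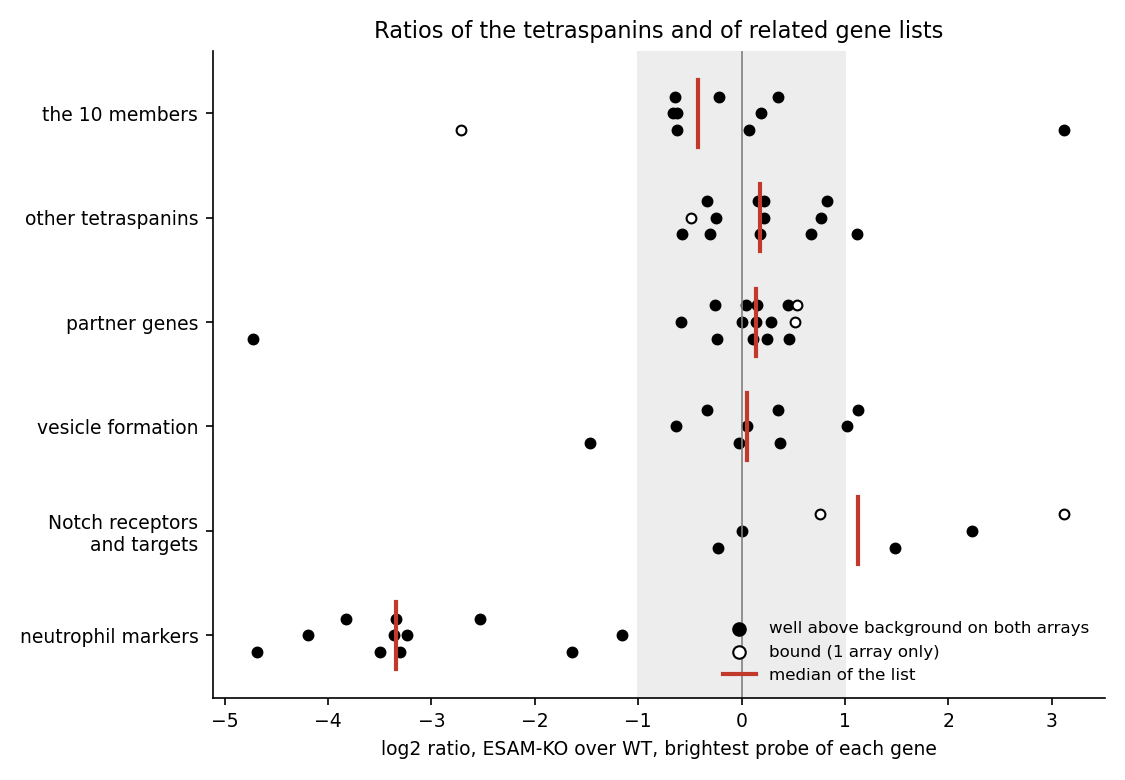
Log2 ratio of ESAM-KO over WT at the brightest probe of each gene, by gene list, where filled points were well above background on both arrays, open points are bounds, the red line is the median of the list and the grey band holds ratios within 2-fold. The 10 tetraspanins (median -0.42), the other tetraspanins (0.18), the partner genes (0.14) and the genes of vesicle formation (0.05) lie mostly within the band, 3 of 6 Notch receptors and targets lie above it, and all 11 neutrophil genes lie below it.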

How the data were processed

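The authors labelled amplified cDNA of 1 pool per genotype with Cy3 and deposited scanner files of Agilent Feature Extraction 10.10.1.1 (version per the submitters' processing notes). They hold the intensity of each spot, background-subtracted and spatially detrended but not scaled between arrays, together with flags for outliers and for signal well above background. This intensity is repeated in the deposited series table with 3 significant digits.

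Control spots and 254 spots with an outlier flag were left out, none of them a spot of the 10 genes. The log2 intensity minus that of the array's 75th percentile was used, and spots of one probe were averaged. Detection of a probe required the well-above-background flag on more than 50% of its spots. With detection on 1 array only, the ratio is a bound, taken against the dim array's lowest detected signal or, if higher, the signal of the probe there. No ratio is given where neither array qualified or the bound was under 1-fold. Accessions were matched without versions to RefSeq names of GRCm38.p6, which named 48.9% of the probes, and each gene was represented by its brightest probe (mean log2 intensity), with all probes given for the 10 genes. Promoter windows came from RefSeq on the same assembly.

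The members and lists were chosen with earlier results of these data known. The text names all 10 members and Esam, from the related lists each gene past 2-fold and Adam10, and single genes of the marker lists, partly picked after their values were seen. Also picked in that way were the unchanged integrins, Notch1, Notch2, Nrarp, Stam, Cr2, Cd44 and the other TspanC8 genes. With 1 array per genotype no test was run. The alternatives were other scalings (by the median or the detected probes, by quantile or cyclic loess normalization, or none), normexp (offset 50) on median spot signals, the series table, outlier spots kept, other detection filters, other probe summaries and a 3-fold threshold. Python 3.11.15 with pandas 2.3.3 and numpy 2.4.6, were used, and limma 3.58.1 in R 4.3.3 for the normalizations. Tested on simulated data for the ESAM-KO over WT comparison, the counting recovered 200 of 200 genes changed 4-fold among 13762 genes, with 0 false calls. This checks the counting alone, because the planted change was larger than the threshold. It gives no rate of false calls for the real arrays. Precision is limited by the number of arrays.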

Additional observations from a re-analysis of the deposited data

How the results depend on the processing

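Over the 10 tetraspanins and the 12 other settings, 99 of 119 ratios moved by less than the scanner error and 20 by more, and none past 2-fold changed direction. Many of these ratios could not move, so the count does not measure robustness. No spot of these genes had an outlier flag, and the detection filters changed Cd53 alone. Genes with 1 probe keep their ratio under every probe summary, and the series table repeats the same intensities with fewer digits. For Cd53 the scanner error was as large as 1.46. For members within 2-fold the sign turned for Tspan32 without scaling, for Cd81 with median scaling, and for Cd82 and Cd151 at their dimmest probes. The 1 member higher by more than 2-fold became 0 at the dimmest probe of each gene, and the 1 lower became 0 when detection on both arrays was required and with normexp. The median of the members, -0.42, was -0.10 without scaling and 0.088 at the dimmest probes. Esam, at -0.73, was -0.41 without scaling and -0.26 with normexp. The other tetraspanins higher by more than 2-fold, 1, became 0 at 3-fold, with median scaling and with normexp, 3 without scaling and 2 with no detection filter, which also gave 2 lower where there had been 0, and their median, 0.18, became 0.49 without scaling and -0.25 with no detection filter. The partner genes higher, 0, became 3 at the dimmest probes and 1 with the mean of probes or with no detection filter. All genes higher and lower, 988 and 1191, became 1804 and 729 without scaling, 236 and 486 with normexp, 1800 and 2308 with no detection filter, and 317 and 504 at 3-fold. The median of all genes moved to 0.31 without scaling, to -0.13 with median scaling and to -0.14 with no detection filter. The threshold, the filter and the scaling act on these values by construction, and for the dimmest probes and normexp the cause was not tested. No ratio could be given for 6424 genes that neither array detected. No paired analysis was possible because there was a single array of WT and a single one of ESAM-KO.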
